A study of Caenorhabditis elegans with 4 samples.

Results

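The miR-51 family of *C. elegans* was followed in small RNA libraries made from co-immunoprecipitations (co-IPs) of 2 Argonautes, ALG-1 and ALG-2. Members were chosen by name, as the mature miRNAs miR-51-5p, miR-52-5p, miR-53-5p, miR-54-3p, miR-55-3p and miR-56-3p, and all 6 were found among the 66 mature miRNAs of the table. The animals of the ALG-1 group were strain PQ530, in which the endogenous gene was edited to encode FLAG::GFP::ALG-1, and those of the ALG-2 group were strain PQ582, encoding FLAG::RFP::ALG-2. Both strains were grown on OP50 bacteria without further treatment, and whole worms were taken on day 5 of adulthood after eggs and larvae had been removed. An anti-FLAG antibody recovered both proteins, and 2 independent libraries were sequenced per protein. Each Argonaute was studied in 1 strain with its own fluorescent tag, so the Argonaute, the tag and the strain cannot be told apart. Neither input RNA nor an untagged strain was analysed here, so a difference between the co-IPs cannot be divided into loading and the tissues in which each protein is found.

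A miRNA guides its Argonaute to partly complementary sites in messenger RNAs, and its seed, a short stretch near the 5′ end, dominates target choice. The members of the miR-51 family share a seed with the miR-99/100 miRNAs of other animals, one of the oldest animal miRNA families. In *C. elegans* the family is broadly expressed and its members act redundantly. Animals that lack the whole family die as embryos with defects that include a detached pharynx, and partial loss of the family modifies the developmental timing phenotypes of lin-4 and let-7 family mutants. Because the seed is shared, target choice by seed differs little between members, although their levels and sites of expression can differ.

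The 6 genes lie in 3 places of the genome (RefSeq annotation, WBcel235). *mir-56* (chromosome X, 13144691-13144787), *mir-55* (13144827-13144924) and *mir-54* (13144996-13145094) form a cluster that spans 404 bases inside the protein-coding gene *F09A5.3*. The gaps between these neighbours are 39 and 71 bases. RefSeq lists a further miRNA gene, *F09A5.15*, over *mir-55*. *mir-51* (chromosome IV, 11026013-11026112) and *mir-53* (11027593-11027691) are 1480 bases apart and lie within no annotated protein-coding gene. *mir-52* (chromosome IV, 14034008-14034107) is 3006316 bases from *mir-53* and overlaps an annotated non-coding RNA gene. The members on chromosome IV were listed as the 5p product of their hairpins and those on chromosome X as the 3p product.

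The libraries, called A and B in column order, rested on 11625117 and 6428905 reads for ALG-1 and on 12401622 and 25703472 reads for ALG-2. Values are RPM, the reads of a miRNA scaled to the size of its library. The 66 miRNAs took 99.3% to 99.5% of the reads counted for each library, so a rise of an abundant miRNA lowers all others. Whether these counts hold every sequenced read or only reads assigned to miRNAs could not be told from the values. The members were represented by 4931 to 657624 reads, and the counting error of a member's value was at most 1.42%. miRNAs of the miR-35 family, which are abundant in embryos, were above 0 in every library, as were all 66 listed miRNAs. The miR-35 family summed to 4.84% and 4.19% of the ALG-1 libraries and to 26.5% and 14.1% of the ALG-2 libraries. Its part in the values below was not tested.

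miR-51-5p, the namesake of the family, had the most uneven values. It reached 3464 and 2588 RPM in the ALG-1 libraries, against 53027 and 2807 RPM in the ALG-2 libraries. ALG-2 library A stood apart, and ALG-2 library B lay between the ALG-1 libraries. In ALG-2 library A, miR-51-5p ranked 5 of 66 by abundance, whereas it ranked 33 and 32 with ALG-1 and 31 in ALG-2 library B. Whole worms were used, so here and below a greater share of cells with a miRNA and more of it per cell cannot be told apart.

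miR-53-5p, encoded next to miR-51-5p, was the least abundant member in every library. It had 994 and 767 RPM with ALG-1, against 446 and 821 RPM with ALG-2. These groups overlapped, and ALG-2 library A held its lowest value, although the same library held the highest value of miR-51-5p.

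miR-52-5p, encoded alone, had 4289 and 3530 RPM with ALG-1, against 4429 and 7877 RPM with ALG-2. Its mature sequence is nearly identical to that of miR-53-5p, so the division of reads between this pair is uncertain. Both ALG-2 values were higher, but the ALG-2 to ALG-1 ratio ranged only from 1.03 to 2.23.

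Of the chromosome X cluster, miR-54-3p had 8086 and 10195 RPM with ALG-1, against 2349 and 6121 RPM with ALG-2. It was the only member that was higher in both ALG-1 libraries, and its ratios for the 4 pairs of an ALG-1 with an ALG-2 library were 3.44, 1.32, 4.34 and 1.67.

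The neighbours of miR-54-3p behaved differently. miR-55-3p had 7707 and 8599 RPM with ALG-1, against 18152 and 2175 RPM with ALG-2. miR-56-3p had 8019 and 8940 RPM with ALG-1, against 14799 and 2433 RPM with ALG-2. For both, the ALG-1 values lay close together and between the ALG-2 values.

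**Figure D1:**
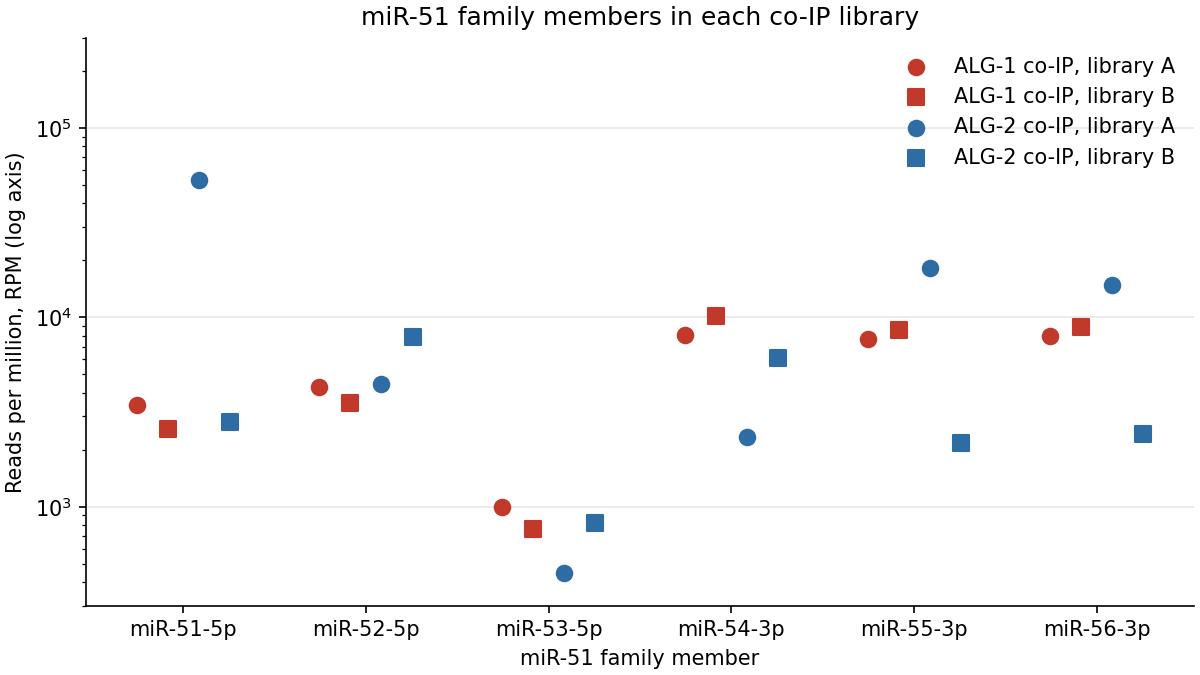
RPM (log axis) of each miR-51 family member in each library, with ALG-1 in red, ALG-2 in blue, circles for library A and squares for library B. The ALG-1 libraries lie close together for every member, whereas ALG-2 library A is at 53027 RPM and library B at 2807 RPM for miR-51-5p.

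Summed over its members, the family took 3.26% and 3.46% of the counted ALG-1 reads, against 9.32% and 2.22% of the counted ALG-2 reads. The ALG-2 libraries thus lay on either side of the ALG-1 libraries. The log2 ratio of the sums, ALG-1 over ALG-2, was -0.44 ± 1.03 (SE from the spread of libraries, n = 2 each), and the exact two-sided permutation test gave p = 1, where the smallest p that 2 against 2 libraries allow is 0.333. The direction rested on single libraries and a single member. Without ALG-2 library A the log2 ratio was 0.59, without ALG-2 library B it was -1.47, and without miR-51-5p it was 0.13. The abundant miR-58/80 family took 46.4% and 49.2% with ALG-1, against 15.0% and 46.6% with ALG-2. It was thus lowest in ALG-2 library A, where the miR-51 family was highest. How far this raised the RPM of other miRNAs in that library was not tested.

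To ask whether any member preferred one Argonaute, each ALG-1 library was divided by each ALG-2 library, and a miRNA was counted as enriched when the 4 ratios were past 1.5-fold on the same side. This held for 0 of the 6 members toward ALG-1, where it held for 13.6% of the 66 miRNAs, and for 0 of the 6 toward ALG-2, where it held for 16.7%. miR-54-3p fell short by a single ratio, the 1.32 of ALG-1 library A over library B of ALG-2. When libraries were instead paired in column order, with ratios of 3.44 and 1.67, miR-54-3p passed as the sole member, and with the pairs crossed none passed. Without ALG-1 library A, miR-54-3p also passed, and without ALG-2 library B so did miR-53-5p and miR-54-3p. Toward ALG-2, miR-51-5p, miR-55-3p and miR-56-3p passed without ALG-2 library B. Without ALG-2 library A, however, miR-55-3p and miR-56-3p passed toward ALG-1 and only miR-52-5p toward ALG-2. The rule is easier to pass with fewer ratios, and the share of all 66 miRNAs that passed was not computed for these other settings. Their member counts therefore have no background and show no preference of the family.

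By the weaker requirement that the groups do not overlap, 1 of the 6 members (miR-54-3p) was higher with ALG-1, compared to 27.3% of all miRNAs, and 1 of the 6 (miR-52-5p) was higher with ALG-2, compared to 25.8%. Both counts are near or below the share of all miRNAs.

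**Figure D2:**
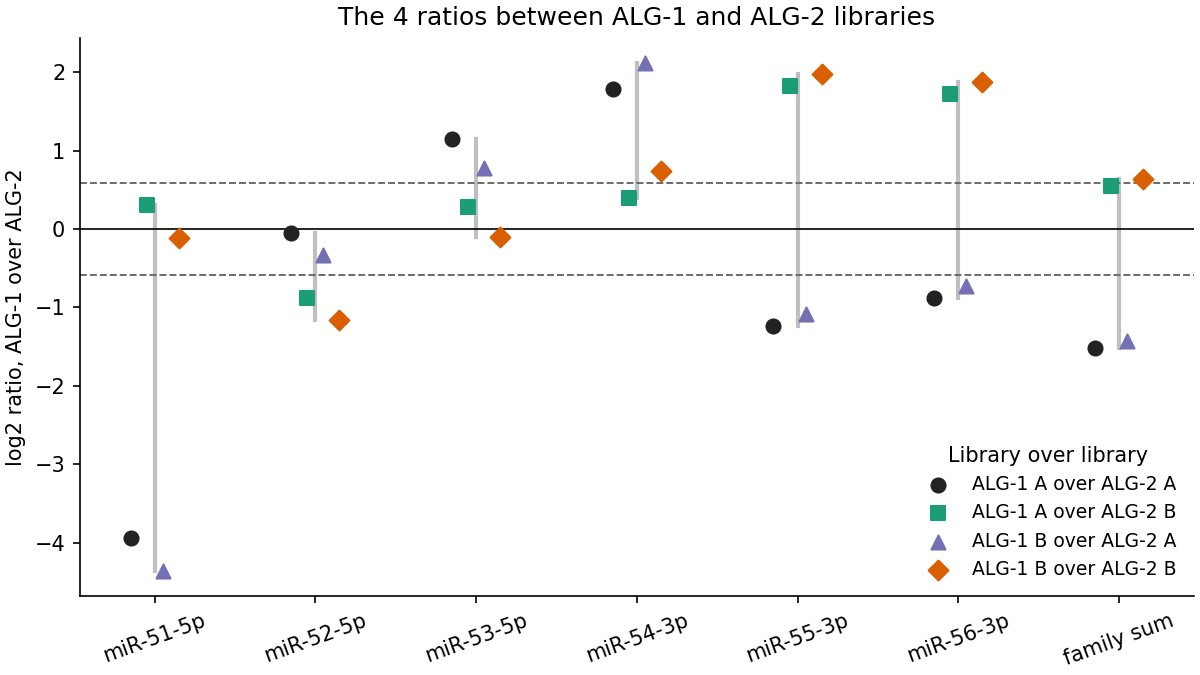
The 4 log2 ratios of an ALG-1 over an ALG-2 library for each member and the family sum, with dashed lines at 1.5-fold in either direction and grey bars over the range. Only miR-54-3p and miR-52-5p keep all 4 ratios on one side of 0, with a lowest miR-54-3p ratio of 1.32.

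limma, fitted on log2(RPM + 1) over all 66 miRNAs with Benjamini-Hochberg adjustment, called 0 of the 6 members in either direction. It called 0% of the 66 miRNAs toward ALG-1 and 1.52% toward ALG-2. At an unadjusted limma p below 0.05 there were 7 and 10 miRNAs, of which 0 were members. miR-54-3p had the largest log2 ratio toward ALG-1 among the members, at 1.26 ± 0.62 (moderated SE, limma adjusted p = 0.282). The ratio became 0.57 without ALG-2 library A and 1.95 without ALG-2 library B. The mean of miR-54-3p was 9140 ± 1492 RPM in ALG-1 libraries, against 4235 ± 2667 RPM in ALG-2 libraries (SD over n = 2). For miR-51-5p the log2 ratio was -2.03 ± 1.31 (limma adjusted p = 0.402). This ratio became -4.15 without ALG-2 library B and 0.093 without ALG-2 library A. Such fits leave a lone ALG-2 library, so they leave out the 18.9-fold difference between the ALG-2 libraries for miR-51-5p, and only effect sizes are given. The remaining log2 ratios were -0.60 ± 0.54 for miR-52-5p, 0.53 ± 0.59 for miR-53-5p, 0.37 ± 1.0 for miR-55-3p and 0.50 ± 0.88 for miR-56-3p, with limma adjusted p-values up to 0.865. The median log2 ratio was 0.44 over the 6 members and 0.13 over all 66 miRNAs. With 2 libraries per group and this spread, the differences of these members were not resolved, which does not show that the Argonautes carried them alike.

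Next, each member was expressed as a share of the family sum in its library, a measure that does not depend on how the libraries were scaled. In the ALG-1 libraries 3 members took nearly equal parts. miR-54-3p made up 24.8% and 29.4%, miR-55-3p 23.7% and 24.8%, and miR-56-3p 24.6% and 25.8% of the family. In ALG-2 library A, by contrast, miR-51-5p alone made up 56.9% of the family, and in ALG-2 library B miR-52-5p led with 35.4%. The effective number of members, the inverse of the summed squared shares, was 4.81 and 4.32 in the ALG-1 libraries and 2.57 and 4.16 in the ALG-2 libraries.

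miR-55-3p and miR-56-3p were the only members with lower shares in both ALG-2 libraries than in both ALG-1 libraries. Their joint share was 48.3% and 50.7% with ALG-1, against 35.4% and 20.7% with ALG-2. Conversely, the share of miR-51-5p was 10.6% and 7.47% with ALG-1, against 56.9% and 12.6% with ALG-2, and was thus higher in both ALG-2 libraries. Each of these 3 shares gave p = 0.333 in the exact permutation test, the smallest possible, which any 2 against 2 values without overlap give. How often the shares of members separate in other families was not computed. Shares of one whole are tied to each other, and once miR-51-5p was left out the mean share of miR-55-3p differed by only -1.52 percentage points (ALG-1 minus ALG-2) and that of miR-56-3p by 3.06. miR-54-3p, at 2.52% and 27.5% of the family with ALG-2, and miR-52-5p, at 4.75% and 35.4%, overlapped with their ALG-1 shares.

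**Figure D3:**
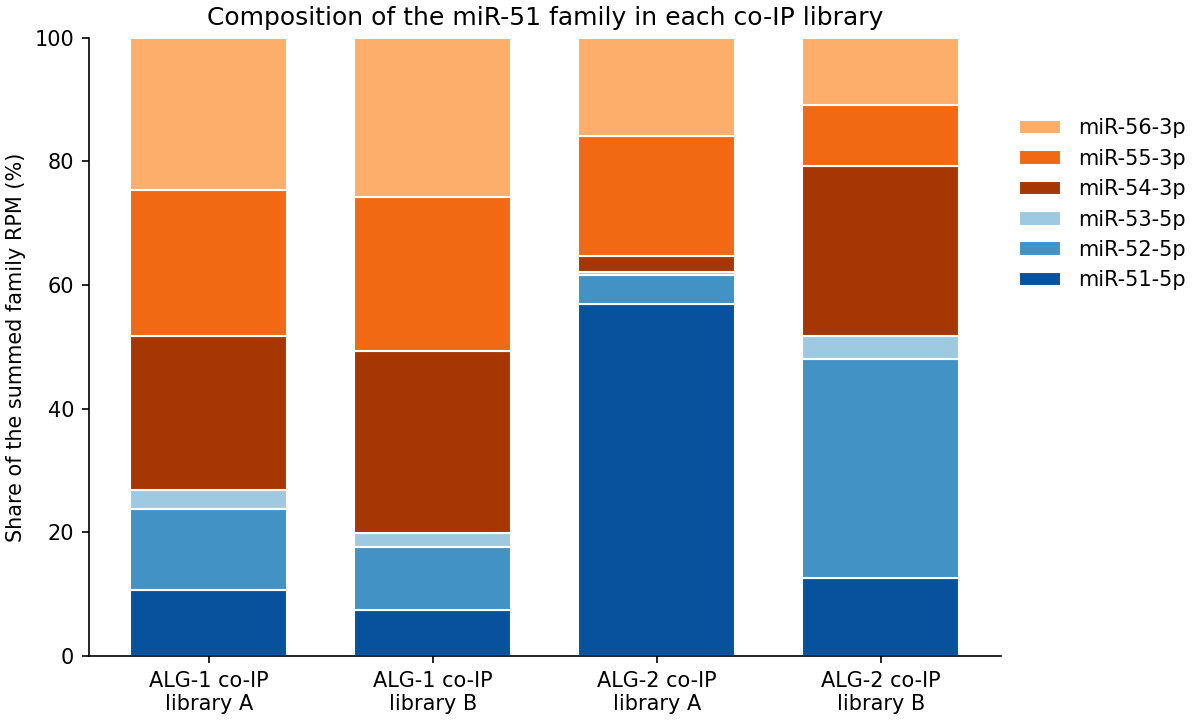
Share of each member in the summed RPM of the family, in percent, for the 4 libraries, with members of chromosome IV in blue and members of chromosome X in orange. The ALG-1 bars resemble each other, ALG-2 library A is dominated by miR-51-5p (56.9%) and ALG-2 library B is led by miR-52-5p (35.4%).

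Grouped by locus, the members from the chromosome X cluster made up 73.1% and 80.1% of the family with ALG-1, against 37.9% and 48.3% with ALG-2. The members from chromosome IV accordingly made up 26.9% and 19.9% with ALG-1, against 62.1% and 51.7% with ALG-2. The ratio of X to IV members was 2.72 and 4.03 with ALG-1, against 0.610 and 0.933 with ALG-2, a difference of 2.13 on the log2 scale or 4.39-fold (exact permutation p = 0.333, the smallest possible). This separation remained when any member other than miR-51-5p was left out, with 4.39-fold to 4.82-fold differences. Without miR-51-5p, however, the ratios were 4.51 and 6.45 with ALG-1, against 7.24 and 1.23 with ALG-2, and the groups overlapped. Leaving out each member in turn was added after the data were seen. Separation is also common in these data, since the ratio of 2 miRNAs within a library did not overlap between groups for 55.2% of all 2145 pairs. In ALG-2 library A miR-51-5p alone supplied most of the chromosome IV reads, whereas in ALG-2 library B miR-52-5p did.

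The 15 ratios between pairs of members within a library were compared in the same way. For 6 of the 15 pairs the ALG-1 and ALG-2 libraries did not overlap, compared to 55.2% of all 2145 pairs of the 66 miRNAs, so such separation was not more frequent in the family. The most reproducible of the 6 was the ratio of miR-52-5p to miR-53-5p. It was 4.31 and 4.6 with ALG-1, against 9.92 and 9.59 with ALG-2. The log2 difference was -1.13, whereas libraries of one Argonaute differed by 0.093 (ALG-1) and 0.049 (ALG-2) on the log2 scale. This pair was singled out after its values were seen, its reads are hard to divide, and a design of 2 against 2 allows no p below 0.333. The ratio of miR-52-5p to miR-54-3p also separated, at 0.531 and 0.346 with ALG-1, against 1.89 and 1.29 with ALG-2.

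The reverse case was miR-55-3p and miR-56-3p, whose ratio was 0.961 and 0.962 with ALG-1, against 1.23 and 0.894 with ALG-2. The proportion of these neighbours was nearly the same in both ALG-1 libraries. Between the ALG-2 libraries it differed by 0.46 on the log2 scale, while their levels changed 8.35-fold and 6.08-fold. Between the same libraries the ratio of miR-52-5p to miR-53-5p differed less (0.049), and that of miR-53-5p to miR-54-3p about as much (0.50). miR-54-3p, encoded 71 bases from *mir-55*, varied more against miR-55-3p. Its ratio to miR-55-3p was 1.05 and 1.19 with ALG-1, against 0.129 and 2.81 with ALG-2. Likewise, the ratio of miR-51-5p to its neighbour miR-53-5p was 3.48 and 3.37 with ALG-1, against 119 and 3.42 with ALG-2, so that 3 of the 4 libraries agreed closely and ALG-2 library A did not.

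**Figure D4:**
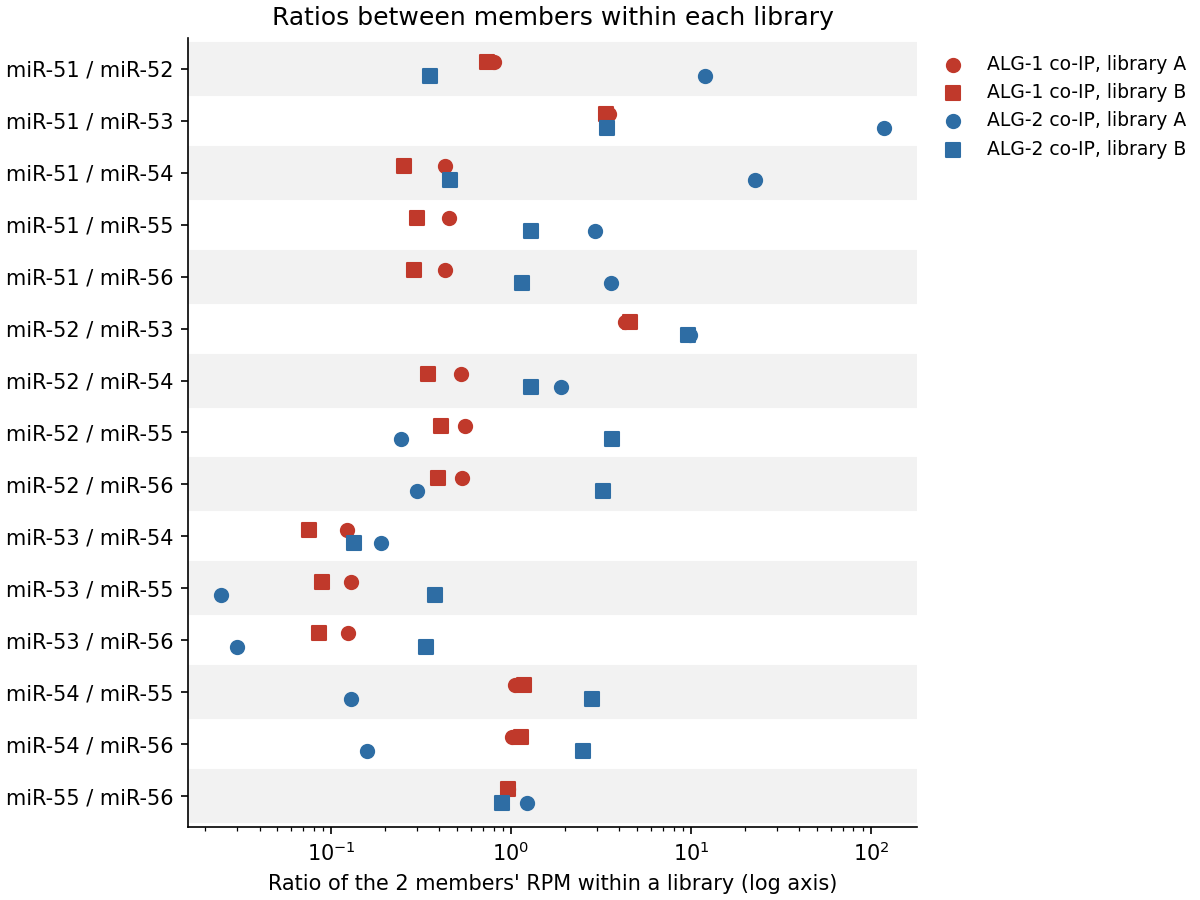
Ratios (log axis) of the RPM of 2 members within each library, for the 15 pairs, with symbols as in the plot of RPM by member. The ratio of miR-52 to miR-53 splits the Argonautes with little spread (4.31 and 4.6, against 9.92 and 9.59), that of miR-55 to miR-56 stays between 0.894 and 1.23, and that of miR-51 to miR-53 reaches 119 in ALG-2 library A only.

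Libraries of the same Argonaute were then compared with each other. The ALG-1 libraries differed by 1.11-fold (miR-56-3p) to 1.34-fold (miR-51-5p). The median absolute log2 difference of the 6 members was 0.31, compared to 0.34 for all 66 miRNAs. The ALG-2 libraries differed by 1.78-fold (miR-52-5p) to 18.9-fold (miR-51-5p), and the median absolute log2 difference was 1.99, compared to 0.90 for all 66 miRNAs and 0.77 for the other 60. Counting error would give at most 0.025 on this scale for any member, in either Argonaute. Differences of this size were not particular to the miR-51 family. In the family of miR-64-5p, the log2 ratio of ALG-2 library A to B was 2.14 for miR-229-5p, 2.21 for miR-64-5p and 2.23 for miR-65-5p, but -0.081 for miR-66-5p.

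Among the 66 miRNAs, miR-51-5p had the largest difference between the ALG-2 libraries (log2 4.24), miR-55-3p the second largest (3.06) and miR-56-3p ranked 6 (2.60). These 3 were higher in ALG-2 library A. The other 3 members were higher in ALG-2 library B, by log2 differences of 0.83 for miR-52-5p, 0.88 for miR-53-5p and 1.38 for miR-54-3p, which ranked 35, 34 and 21. The split did not follow the loci, since each chromosome contributed members to both sides.

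**Figure D5:**
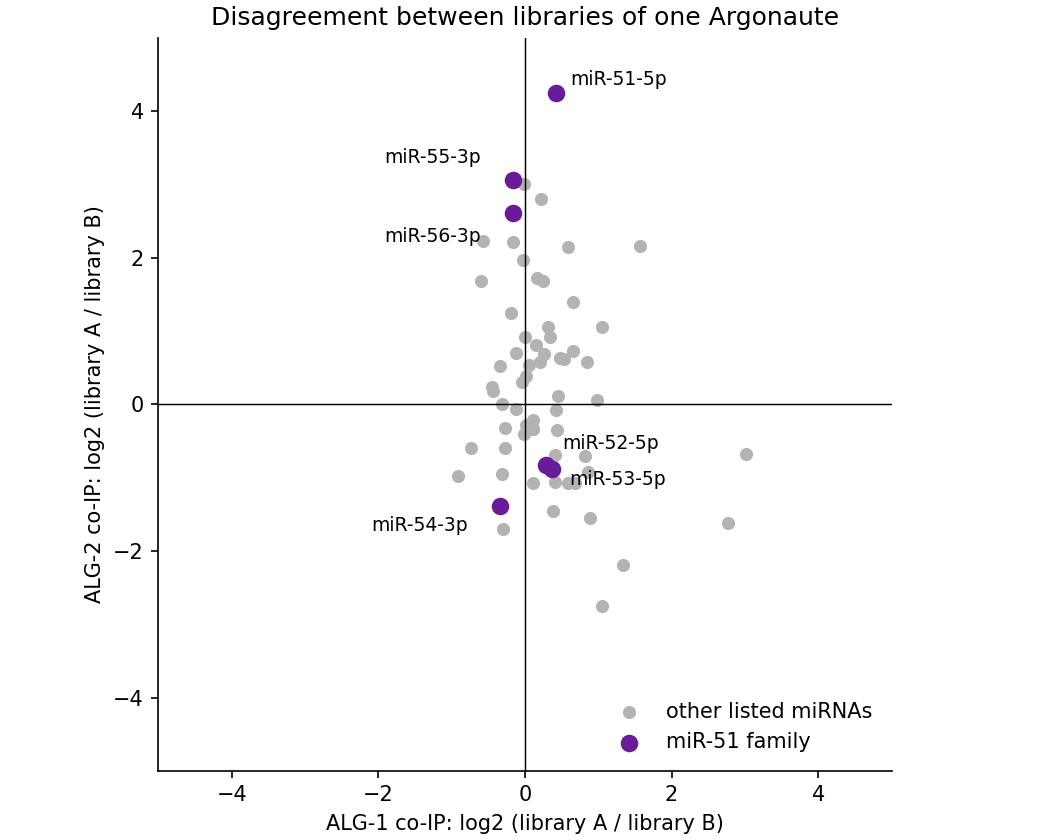
log2 ratio of library A to library B for ALG-1 (horizontal) and ALG-2 (vertical), with 1 point per miRNA and the 6 family members in purple. The members lie within 0.42 of 0 for ALG-1 but spread from -1.38 to 4.24 for ALG-2.

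The composition of the family differed more between the ALG-2 libraries than between the Argonautes. Of the family sum, 58.9 percentage points would have to be reassigned between members to turn ALG-2 library A into ALG-2 library B, compared to 6.98 points between the ALG-1 libraries and 27.6 to 49.4 points across the Argonautes. The same measure between the ALG-2 libraries was 6.46 points for the let-7 family, 17.3 for the miR-35 family, 20.5 for the miR-58/80 family and 26.8 for the family of miR-64-5p, which have 4, 6, 4 and 4 listed members. These values describe single libraries and no test was made of their difference.

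Finally, the pattern of each member over the 4 libraries was compared with all other miRNAs by the distance between profiles of log2(RPM + 1), each centred on its mean. Closest to the family sum were miR-64-5p (distance 0.24), miR-65-5p (0.36) and miR-229-5p (0.48), neighbours of each other in another miRNA cluster. miR-66-5p, listed in the family of miR-64-5p, did not share this pattern. Its log2 ratio of ALG-2 library A to B was -0.081, against 2.21 for miR-64-5p. miR-64-5p had 10383 and 11680 RPM with ALG-1, against 37029 and 7978 RPM with ALG-2. miR-55-3p and miR-56-3p were each other's nearest miRNA (0.35), and theirs was the smallest distance among the 15 pairs of members. The nearest miRNA was not a family member for the other 4. It was miR-82-3p for miR-54-3p (0.27), miR-785-3p for miR-53-5p (0.23), miR-80-5p for miR-52-5p (0.37) and miR-230-3p for miR-51-5p (1.15). miR-230-3p had 83.9 and 84.6 RPM with ALG-1, against 1573 and 195 RPM with ALG-2, so that ALG-2 library A stood out for it as well. The most distant pair of the family was miR-51-5p and miR-54-3p (5.18).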

How the data were processed

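Small RNA libraries of both co-IPs, from day 5 adults, were analysed. According to the study's methods and labels, the authors trimmed adapters with cutadapt, mapped reads to the WS261 genome with miRDeep2 and quantified miRNAs on the miRBase annotation (tool versions not stated). The deposited values are RPM, normalized by the authors to reads in the library, and cover the 66 listed miRNAs. The paper left miRNAs with few reads out of its enrichment analyses. Among the listed miRNAs the smallest sum over the libraries was 1003 RPM, so shares of all 66 miRNAs describe these listed miRNAs only. Depth was read from the RPM steps, since all 66 values of each column were whole reads within 0.0001 of a read. No count model was fitted, as the table is too short to establish this formally, so the planned count test was not run. Column names give the Argonaute but no replicate number.

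limma 3.58.1 (R 4.3.3) was fitted on log2(RPM + 1) with a variance trend and no block, over all 66 miRNAs, with a threshold of 0.05. It was tested on simulated data with the same spread in both groups. The ALG-2 libraries here differed more than the ALG-1 libraries, so the simulation does not show how limma performs on these data. SEs of limma are moderated. Where a library was left out, the lone library was assumed to vary like the others. Replicates were independent RNA samples per the methods. Members and lists were chosen with earlier results of these data known. The 6 members were all named, with the 3 miRNAs nearest to the family sum and the nearest to each member. Other pairings, scalings, pseudocounts, filters and leaving out libraries or members were tried.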

Additional observations from a re-analysis of the deposited data

How the results depend on the processing

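Replicate numbers could not be tied to columns, so a replicate block was fitted for both pairings. Deviations correlated at -0.21 for pairs in column order. With the replicate block in column order limma called 0 miRNAs toward ALG-1 and 1 toward ALG-2, and with crossed pairs 2 and 5, of which 0 were members under either. Toward ALG-2, 4 miRNAs were called after median-of-ratios scaling, TMM scaling or rescaling without miR-82-3p (3 toward ALG-1 in that case), and 3 without the variance trend. Leaving out 1 library left a group with a lone library and no spread of its own, so only log2 ratios are given for those fits.

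Members past 1.5-fold numbered 1 toward ALG-1 with pairs in column order or group means, and 2 toward ALG-2 with group means. The share of all listed miRNAs that passed was not computed for these settings. The counts of members therefore have no background and show no preference of the family. With a library left out, the log2 ratio ranged from -4.15 to 0.093 for miR-51-5p, from -1.02 to -0.19 for miR-52-5p, from 0.088 to 0.97 for miR-53-5p, from 0.57 to 1.95 for miR-54-3p, from -1.16 to 1.90 for miR-55-3p, from -0.81 to 1.80 for miR-56-3p and from -1.47 to 0.59 for the family sum. The family ratio was 0.0050 as the mean of member log2 ratios and 0.13 without miR-51-5p. Share differences (ALG-1 minus ALG-2, percentage points) ranged from -47.8 to -3.57 for miR-51-5p, from -23.7 to 6.93 for miR-52-5p, from -1.06 to 2.16 for miR-53-5p, from -0.39 to 24.6 for miR-54-3p, from 4.78 to 14.5 for miR-55-3p and from 9.35 to 14.3 for miR-56-3p with a library left out, and were -1.52 for miR-55-3p and 3.06 for miR-56-3p without miR-51-5p. The X to IV log2 ratio was 0.99 without the member of each chromosome with the highest mean over the libraries (miR-55-3p and miR-51-5p, which lead their chromosomes in ALG-2 library A only) and 0.85 without miR-51-5p alone. Leaving out single members from this ratio was chosen after seeing the data. The family difference between ALG-1 libraries was -0.22 with median-of-ratios and -0.27 with TMM scaling, against -0.089. Both ends of each of these ranges of log2 ratios and shares came from leaving out an ALG-2 library. The cause of these changes was not tested, although by construction the fold rule is easier to pass with fewer ratios. Depth limited none of the members' values.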
